A study of Mus musculus with 10 samples.

Results

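The AP-1 and bZIP family genes described here were Jun, Junb, Jund, Fos, Fosb, Fosl1, Fosl2, Batf3, Atf3 and Nfe2l2, 10 mouse genes measured through the open chromatin in and around them. Their members are the rows of a table of accessible regions that overlapped the protein-coding span of one of these genes on GRCm38, or that had it as their nearest span within 100 kb. This gave 74 regions of 77076, of which 73 had enough counts to be tested. The test left out 1 Fos region, 55.5 kb downstream, with 39 counts in all libraries together. Jun had 17 regions, Fos 13, Atf3 9, Fosb 8, Nfe2l2 8, Batf3 6, Junb 4, Fosl2 4, Jund 3 and Fosl1 2.

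AP-1 is a dimer of basic leucine zipper (bZIP) proteins, most often a Jun family protein with a Fos or ATF family partner, that binds DNA downstream of antigen receptor and MAP kinase signals. In T cells AP-1 also binds next to NFAT and IRF4, and BATF proteins compete with Fos proteins for Jun partners. Nfe2l2 encodes NRF2, a bZIP factor of the antioxidant response that pairs with small Maf proteins and is held low by KEAP1. Open chromatin at these genes is not a measure of their RNA or protein.

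The libraries were ATAC-seq, in which a transposase cuts and tags open DNA, of regulatory T cells (Treg) sorted from the spleen and the lymph nodes of chimeric mice made with mixed bone marrow, animals whose blood cells come from a mixture of donor marrows. There were 4 groups: wild-type central Treg (WT cTreg, 3 libraries), wild-type effector Treg (WT eTreg, 3 libraries), Fntb-deficient central Treg (FntbKO cTreg, 2 libraries) and Fntb-deficient effector Treg (FntbKO eTreg, 2 libraries). Fntb encodes the beta subunit of protein farnesyltransferase, which attaches a farnesyl lipid to RAS family proteins and lamins. All cells came from chimeras, and the labels used here give no allele, Cre driver, strain, age, sorting gate or number of animals behind a library, so the p-values measure only the spread between these libraries, which may be technical. Mates of a read pair, cells of one library and regions of one gene are not independent samples, and in bulk libraries a region open in more cells and a region more open in each cell cannot be told apart.

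Libraries held 5058328 to 15328775 counts. Values are given as CPM, read counts scaled by TMM factors to one common library total, in the order of replicates 1, 2 and 3. For single regions this is the total over all regions. Gene sums, also those of the marker lists, were scaled to the total over all gene sums, with TMM factors of their own. That total counts a region once for each span it is assigned to and leaves out unassigned regions. A gene sum therefore differs from the added CPM of its regions. The Fntb region at the start of the gene read 29.2 to 36.8 CPM in WT cTreg and 29.4 to 30.3 CPM in WT eTreg, against 11.1 to 13.1 and 7.47 to 11.6 CPM in the FntbKO groups, so the libraries followed their genotype labels. Summed over the 4 central Treg markers, accessibility was 1263 to 1319 CPM in WT cTreg and 1034 to 1216 CPM in WT eTreg, and over the 5 effector markers 812 to 961 and 995 to 1072 CPM. In FntbKO cTreg and FntbKO eTreg the central markers summed to 1343 to 1347 and 1232 to 1274 CPM and the effector markers to 748 to 806 and 876 to 971 CPM, so that within each subset the FntbKO libraries lay above WT for the central list and below it for the effector list without overlap. The part of these lists in the genotype differences below was not tested. The Treg list (Foxp3, Il2ra, Ctla4 and 3 others) summed to 1291 to 1443 CPM in WT cTreg and 1440 to 1480 CPM in FntbKO cTreg. In WT eTreg it summed to 1310 to 1390 CPM and in FntbKO eTreg to 1414 to 1485 CPM, without overlap. The part of this list in the genotype differences was not tested either. No region was present for the B cell markers Cd79b and Ms4a1, the myeloid markers Lyz2 and Csf1r or the haemoglobin genes Hbb-bs and Hba-a1. The 5 CD8 T or NK markers, all with regions, summed to 275 to 288 and 275 to 282 CPM in the WT and FntbKO cTreg libraries against 234 to 264 and 227 to 235 CPM in the eTreg libraries. Their part in the eTreg against cTreg values below was not tested.

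The regions covered the start of most of these genes. A region held the annotated start of Jun, Junb, Fos, Fosb, Batf3, Atf3 and Nfe2l2. Of the 9 genes with a RefSeq promoter window (GRCm38.p6, 250 bases before to 50 after the start), 7 windows were overlapped by a region (77.8%), against 51.4% of 21262 protein-coding windows. The windows of Jun and Nfe2l2 are shown because the regions that hold them are the most accessible of the 74 and the Nfe2l2 region called between the WT subsets, and that of Fos for comparison. Capitals mark the matches, on either strand, to 3 motifs that bZIP proteins bind: the AP-1 site TGANTCA, the CRE-like site TGACNTCA and the antioxidant response core TGACNNNGC.
Jun (chr4:95052173-95052472, minus strand): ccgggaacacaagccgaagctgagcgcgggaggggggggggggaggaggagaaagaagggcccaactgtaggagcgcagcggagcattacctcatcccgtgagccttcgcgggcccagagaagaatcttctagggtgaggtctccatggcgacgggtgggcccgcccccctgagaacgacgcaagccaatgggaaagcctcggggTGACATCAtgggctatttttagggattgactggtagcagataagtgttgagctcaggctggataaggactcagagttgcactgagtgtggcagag
Nfe2l2 (chr2:75704614-75704913, minus strand): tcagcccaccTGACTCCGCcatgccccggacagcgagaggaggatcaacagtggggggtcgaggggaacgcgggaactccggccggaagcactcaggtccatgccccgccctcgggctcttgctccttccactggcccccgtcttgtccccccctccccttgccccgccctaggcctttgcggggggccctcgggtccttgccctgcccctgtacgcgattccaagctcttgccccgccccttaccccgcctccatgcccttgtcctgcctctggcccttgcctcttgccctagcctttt
Fos (chr12:85473640-85473939, plus strand): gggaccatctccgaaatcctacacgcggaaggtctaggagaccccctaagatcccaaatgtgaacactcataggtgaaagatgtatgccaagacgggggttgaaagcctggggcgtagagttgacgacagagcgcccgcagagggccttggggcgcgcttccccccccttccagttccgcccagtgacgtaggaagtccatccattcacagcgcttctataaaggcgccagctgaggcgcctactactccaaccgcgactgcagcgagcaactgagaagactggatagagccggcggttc
The Jun window held 1 CRE-like match, TGACATCA, which began 45 bases before the start. That of Nfe2l2 held 1 antioxidant core, TGACTCCGC, which began 240 bases before the start. The Fos window held none of the 3 and a TATAAA match 33 bases before the start. Over the 9 windows, TGANTCA matched in 0, TGACNTCA in 1 and TGACNNNGC in 1, against 7.81%, 8.83% and 12.4% of 32851 RefSeq promoter windows. Matches of different motifs may overlap each other. The GC box GGGCGG matched in 7 of the 9 windows, against 35.7%. A match is a description of letters, not a site of binding.

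Compared with the whole table, the 74 regions lay less often inside a gene: 24 (32.4%) overlapped the span, against 62.8% of all regions. Their median width was 423.5 bp against 352 bp, and their median of the mean CPM was 9.24 against 5.01. Among them, the 24 inside a span had a median of 15.3 CPM and 39.3 CPM per kb, and the 34 flanking regions beyond 10 kb had 7.52 CPM and 18.5 CPM per kb. The farthest member lay 75.8 kb upstream of Jun. Beyond the 100 kb limit 17 further regions had Jun as nearest span, from 108.7 kb (90.8 to 131 CPM over the libraries) to 250.8 kb (20.1 to 38.4 CPM), and none had another of the 10 genes.

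Levels between genes are given per kb of region, as the median over the 10 libraries. Junb was highest at 82.8 CPM per kb, followed by Jund (70.7), Atf3 (49.3), Jun (48.2), Fos (46.6), Fosb (45.3), Fosl2 (34.2), Nfe2l2 (31.0), Batf3 (13.7) and Fosl1 (12.8). The ranges over libraries of neighbours in this order overlapped, except between Jund and Atf3, Fosb and Fosl2, and Nfe2l2 and Batf3. The start regions alone gave another order, led by Jun with 224 CPM per kb (193 to 283 over libraries), then Junb (128), Fos (61.7), Fosb (41.5), Nfe2l2 (40.8), Atf3 (31.2) and Batf3 (24.0).

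**Figure D1:**
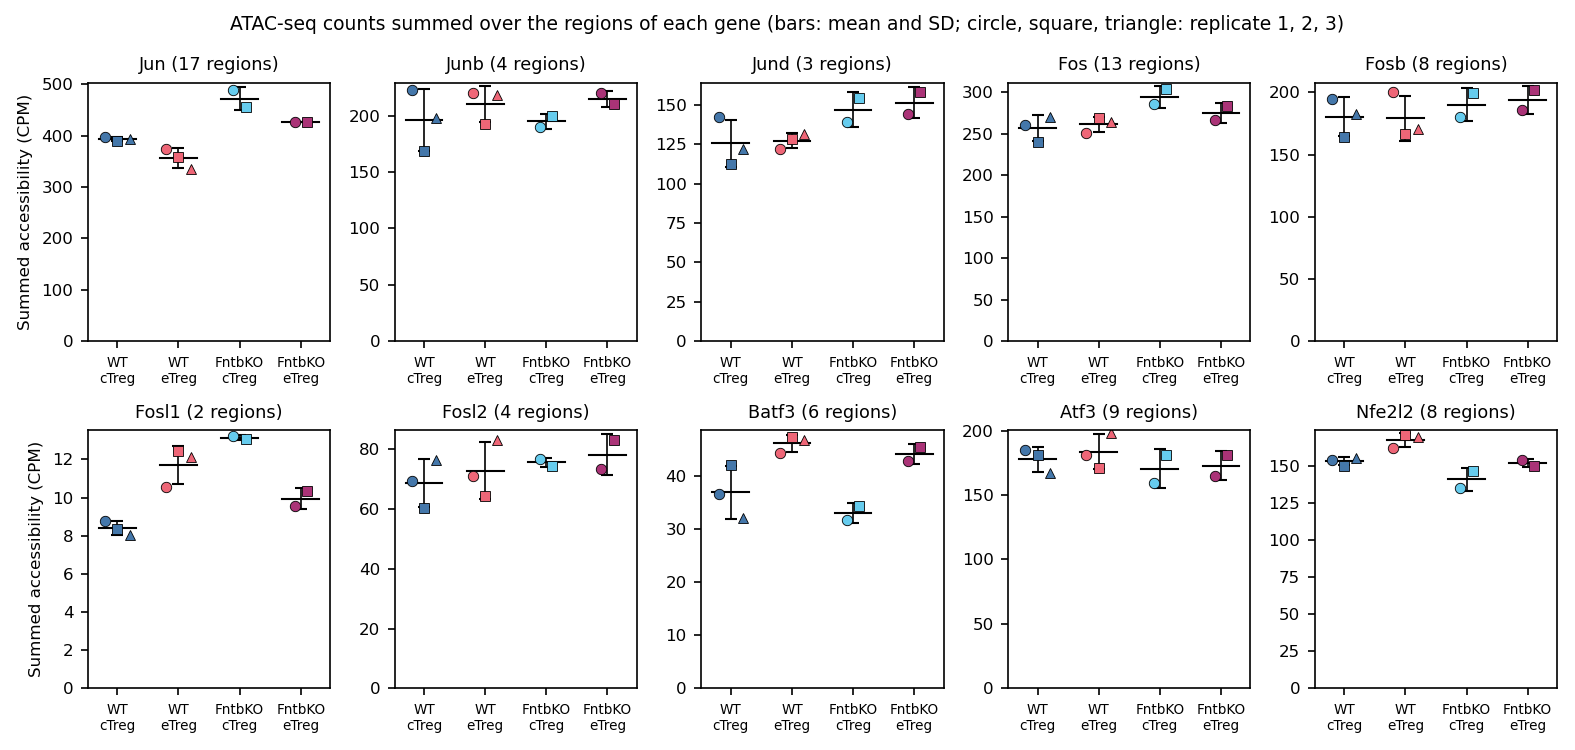
Accessibility (CPM) summed over the regions of each of the 10 genes, by group; points are libraries, horizontal bars the mean and vertical bars the SD. The Jun sums of both FntbKO groups lie above those of the matching WT group, and the Batf3 sums of both eTreg groups above those of the matching cTreg group.

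For each comparison, counts of all regions, and separately counts summed per gene over all its regions, were fitted with edgeR's quasi-likelihood test, and a region or gene was called when its p, adjusted by Benjamini and Hochberg's method across the 76216 regions or 15895 genes tested, was under 0.05. Between WT eTreg and WT cTreg, 1 of the 73 member regions was called, higher in eTreg, against 3.44% of all regions. Between FntbKO eTreg and FntbKO cTreg, 1 of 73 was called, higher in eTreg, against 1.35%. Between FntbKO cTreg and WT cTreg, 1 of 73 was called, lower without Fntb, against 0.568%. Between FntbKO eTreg and WT eTreg, 1 of 73 was called, also lower, against 0.353%. A single call among 73 regions is 1.37%, which was below the first of these shares, close to the second and above the last 2, and both genotype calls were at the same Nfe2l2 region. Of the 10 gene sums, 0 were called in WT eTreg against WT cTreg (3.17% of all genes), 0 in FntbKO eTreg against FntbKO cTreg (1.86%), 1 in FntbKO cTreg against WT cTreg (2.3%) and 0 in FntbKO eTreg against WT eTreg (0.736%). At an unadjusted p under 0.05 the member regions numbered 10, 10, 9 and 13 in the same order, against 18.0%, 15.2%, 12.4% and 12.2% of all regions. For the sums called 0 times, 3, 2 and 2 of 10 had an unadjusted p under 0.05, against 16.4%, 15.0% and 15.4% of all genes. At an unadjusted p under 0.05 the called comparison, FntbKO cTreg against WT cTreg, had 4 of 10, against 18.9%. DESeq2 and limma voom also called 0 sums in the 2 subset comparisons, and DESeq2 called 1 in FntbKO eTreg against WT eTreg.

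The median log2 difference of the member regions was 0.01 between WT eTreg and WT cTreg and 0.00 between the FntbKO subsets, beside -0.01 and 0.00 over all regions. It was 0.09 between FntbKO and WT cTreg and 0.08 between FntbKO and WT eTreg, beside -0.01 and 0.00 over all regions. The 296 tested regions of other bZIP genes, described below, had similar medians of 0.0849 and 0.0803, so this is not particular to the 10 genes. Values above 0 were found at 37, 35, 44 and 41 of 73 member regions in the order of the comparisons above, against 48.9%, 49.6%, 49.4% and 49.8% of all regions. Groups did not overlap at 14, 30, 23 and 26 member regions, against 21.9%, 48.6%, 29.7% and 31.1% of all regions, and for 4, 6, 4 and 4 of the 10 gene sums, against 20.3%, 47.8%, 35.6% and 34.9% of all genes. The comparisons share libraries: each group enters a subset comparison and a genotype comparison.

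**Figure D2:**
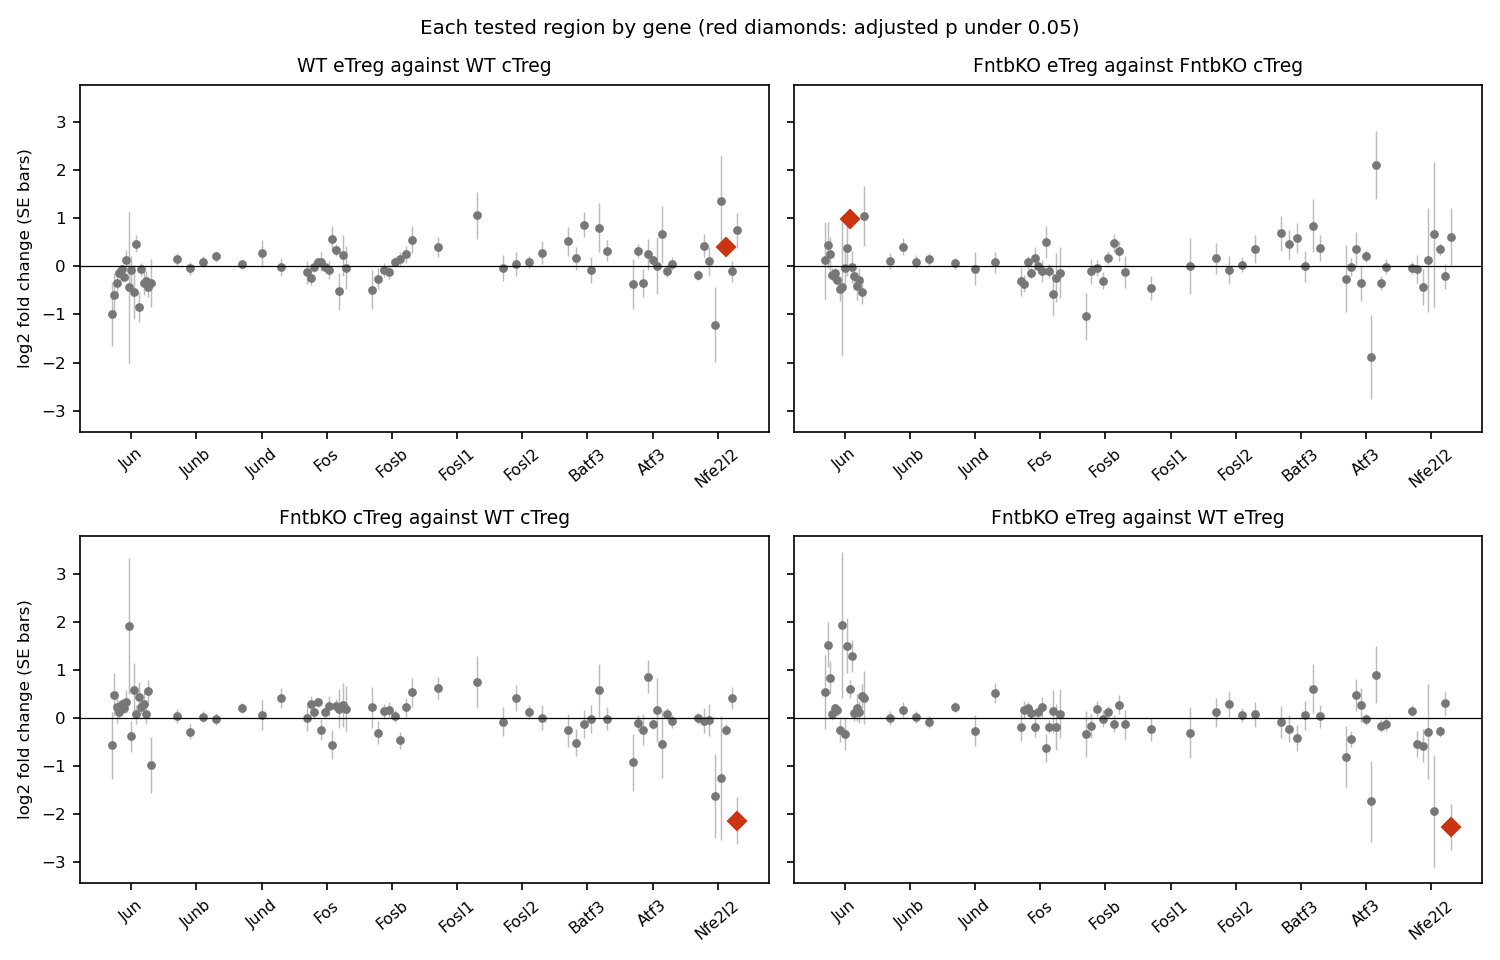
Log2 fold change of each of the 73 tested regions with its standard error, grouped by gene along the x axis and ordered by position within a gene, in the 4 comparisons. Red diamonds mark the regions called: 1 Nfe2l2 region in the WT subsets, 1 Jun region in the FntbKO subsets and 1 Nfe2l2 region in both genotype comparisons.

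Among the Jun family, which supplies a partner of most AP-1 dimers, Jun was the gene whose sum was called. The Jun sum was 398, 390 and 394 CPM in WT cTreg and 488 and 456 CPM in FntbKO cTreg. In eTreg it was 374, 358 and 335 CPM in WT and 426 and 426 CPM in FntbKO. Every FntbKO library was above every WT library of its subset. The sum rose in FntbKO cTreg by 0.26 on the log2 scale (SE 0.063, 1.20-fold, edgeR adjusted p = 0.0332). In FntbKO eTreg the log2 difference was also 0.26 (SE 0.064), with an edgeR adjusted p of 0.0574, and the interaction of genotype and subset was 0.00 (SE 0.091). Without FntbKO cTreg replicate 1, which leaves 1 library in that group, the cTreg value was 0.21 and the call was lost. Without WT cTreg replicate 2 or 3 its edgeR adjusted p was 0.0741 and 0.0693, and after cyclic loess scaling with limma it was 0.0579. The eTreg value passed with DESeq2 (adjusted p = 0.0156) and with the replicate number as a block (0.24, edgeR adjusted p = 0.0238). It also passed without WT cTreg replicate 2 (edgeR adjusted p = 0.0309), a library outside the groups compared. It did not pass with limma voom or cyclic loess, and was 0.21 to 0.29 over the 10 left-out libraries.

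The Jun difference was spread over its regions. The start region (chr4:95052061-95052935), the most accessible of the 74 with a mean of 195 CPM, read 198, 169 and 188 CPM in WT cTreg and 247 and 207 CPM in FntbKO cTreg, and 189, 177 and 169 CPM in WT eTreg against 203 and 208 CPM in FntbKO eTreg. The groups did not overlap in either subset, with log2 differences of 0.29 (SE 0.096, edgeR adjusted p = 0.178) and 0.20 (SE 0.097, adjusted p = 0.402). Added on the scale of single regions, not that of the gene sums, the other 16 regions gave 220, 232 and 216 CPM in WT cTreg. They gave 257 and 262 CPM in FntbKO cTreg, and 212, 193 and 192 against 244 and 235 CPM in eTreg. Log2 differences above 0 were found at 14 of 17 Jun regions in cTreg and 15 of 17 in eTreg, beside 49.4% and 49.8% of all regions. Of the 17, 3 and 6 had an unadjusted edgeR p under 0.05, beside 12.4% and 12.2% of all regions, and 0 passed adjustment. One of the 17, 23.4 kb upstream, was uneven between replicates: its counts were 4, 6 and 31 in WT cTreg, 18, 14 and 0 in WT eTreg, 2 and 186 in FntbKO cTreg and 6 and 80 in FntbKO eTreg. Leaving it out, the 15 regions other than the start summed to 256 and 249 CPM in FntbKO cTreg against 220, 231 and 213 CPM in WT cTreg, still without overlap.

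The called Jun region lay 44.5 kb upstream of the gene (chr4:95096706-95097313), within the annotated span of the long non-coding RNA Junos, and no exon annotation was used. It read 13.1 and 13.6 CPM in FntbKO cTreg and 24.2 and 28.8 CPM in FntbKO eTreg, and 11.4, 15.6 and 11.4 CPM in WT cTreg and 19.0, 15.3 and 18.7 CPM in WT eTreg. Both FntbKO eTreg libraries were above all 8 others. The region rose from cTreg to eTreg without Fntb by 0.99 on the log2 scale (SE 0.204, 1.99-fold, edgeR adjusted p = 0.0139). In WT the log2 difference was 0.47 (adjusted p = 0.138, groups overlapping), and the difference between these, the interaction, was 0.53 (unadjusted p = 0.0611, not called). The FntbKO difference was 0.86 to 1.11 over the 10 left-out libraries. The call was lost without FntbKO cTreg replicate 1 or FntbKO eTreg replicate 2. Either fit leaves 1 library in a group, and few of all regions were called in it. The WT difference passed without WT cTreg replicate 2 (0.62, edgeR adjusted p = 0.0499).

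Summed over all 17 regions, Jun had log2 differences between eTreg and cTreg of -0.15 in WT and -0.15 without Fntb (adjusted p = 0.189 and 0.320), every eTreg library below every cTreg library of its genotype. In WT 15 of the 17 regions had values below 0, where 48.9% of all regions had values above 0. A region 53.1 kb upstream read 4.05, 7.22 and 4.54 CPM in WT cTreg, 3.13, 2.89 and 2.54 CPM in WT eTreg, 6.42 and 7.58 CPM in FntbKO cTreg and 5.41 and 8.26 CPM in FntbKO eTreg. Here WT eTreg was the lowest group, and FntbKO eTreg stood 1.28 above it on the log2 scale (SE 0.333, adjusted p = 0.0835).

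**Figure D3:**
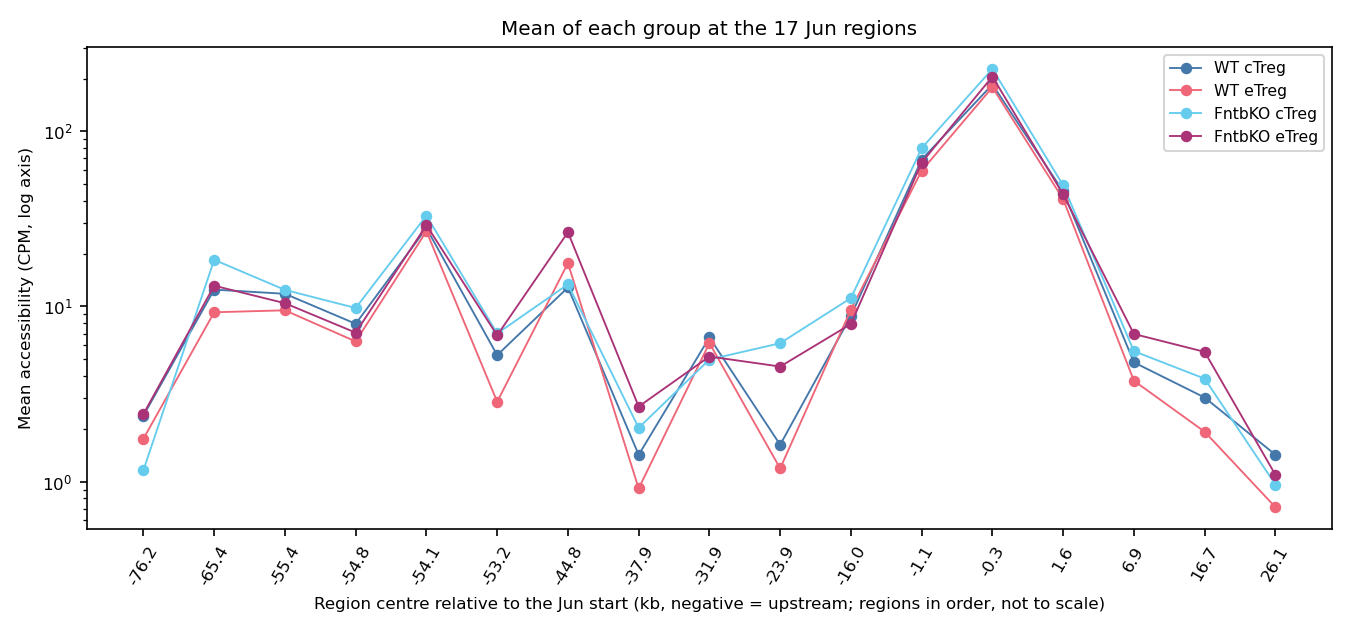
Mean CPM of each group (log axis) at the 17 Jun regions in genomic order, labelled on the x axis by the distance of the region centre from the Jun start in kb, negative upstream. The FntbKO groups lie above the matching WT group at most regions, and the region near -44.8 kb is the one at which FntbKO eTreg was called above FntbKO cTreg.

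Junb and Jund had the highest medians per kb, and neither sum was called in the 4 comparisons. The Junb sum was 223, 168 and 198 CPM in WT cTreg, 220, 192 and 218 in WT eTreg, 190 and 199 in FntbKO cTreg and 220 and 210 in FntbKO eTreg, with overlap in both genotype comparisons and edgeR adjusted p of 0.964 and 0.913. Its inner region (28.6 CPM on average) had an unadjusted interaction p of 0.0468, with 22.6 and 25.3 CPM in FntbKO cTreg and 35.2 and 29.3 CPM in FntbKO eTreg. The Jund sum was 122, 128 and 132 CPM in WT eTreg and 144 and 159 CPM in FntbKO eTreg, a log2 difference of 0.25 (SE 0.092, adjusted p = 0.170) without overlap. In cTreg it was 142, 113 and 122 CPM against 139 and 155 CPM, a difference of 0.23 (adjusted p = 0.177) with overlap, which passed without WT cTreg replicate 1 (0.33, adjusted p = 0.0494). The cTreg difference did not pass with DESeq2, limma voom or cyclic loess.

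Fos family proteins bind DNA mainly as partners of Jun proteins, and Fos itself is an immediate early gene of antigen receptor signalling. The Fos sum was 261, 240 and 270 CPM in WT cTreg and 286 and 304 CPM in FntbKO cTreg, and 251, 269 and 264 CPM in WT eTreg and 267 and 284 CPM in FntbKO eTreg. FntbKO cTreg was above WT cTreg in every library (0.20 on the log2 scale, SE 0.070, adjusted p = 0.129), while the eTreg groups overlapped (0.08, adjusted p = 0.647). With the replicate number as a block the cTreg difference passed (0.22, adjusted p = 0.0442), but not with DESeq2, limma voom or cyclic loess. The most accessible Fos region was not the start but one 18.2 kb upstream (chr12:85454994-85455737), with 84.3, 68.9 and 80.5 CPM in WT cTreg and 95.3 and 99.5 CPM in FntbKO cTreg (0.32, SE 0.102, adjusted p = 0.161). A region 8.5 kb downstream read 26.9, 31.3 and 34.0 CPM in WT cTreg and 38.8, 35.9 and 43.2 CPM in WT eTreg, while FntbKO cTreg had 37.3 and 36.2 and FntbKO eTreg 33.0 and 35.7. WT cTreg was thus the lowest group, and the interaction was -0.43 (SE 0.188, unadjusted p = 0.0282, not called).

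Fosb, a Fos paralogue, and Fosl2, which encodes FRA2, showed little difference. The Fosb sum ranged from 164 to 202 CPM and the Fosl2 sum from 60.5 to 83.1 CPM over the 10 libraries, and their groups overlapped in the 4 comparisons. Their log2 differences lay between -0.01 and 0.13, with adjusted p of 0.559 or more. The most accessible Fosl2 region, 380 bp upstream of the span, averaged 51.5 CPM and did not overlap the RefSeq promoter window.

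Fosl1, which encodes FRA1, had the lowest median per kb of the 10 and the widest range of group means. Its sum was 8.77, 8.37 and 8.03 CPM in WT cTreg, 10.6, 12.4 and 12.1 in WT eTreg, 13.2 and 13.1 in FntbKO cTreg and 9.54 and 10.3 in FntbKO eTreg. Both WT eTreg and FntbKO cTreg were above WT cTreg in every library, by 0.48 (SE 0.185, adjusted p = 0.177) and 0.65 (SE 0.198, adjusted p = 0.0806) on the log2 scale, and FntbKO eTreg was below FntbKO cTreg by -0.40 (adjusted p = 0.405). The interaction of the sum was -0.88 (SE 0.285, unadjusted p = 0.00551), the lowest p among the 10 genes, and its adjusted p was 0.9999. The main Fosl1 region (chr19:5447413-5448023) read 7.54, 7.56 and 7.39, then 9.88, 9.06 and 11.0, then 11.8 and 11.4, then 7.61 and 9.05 CPM in the same order of groups. It overlaps the low-coordinate end of the span, and no promoter window was used for this gene.

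Over all regions the interaction called 0 of 73 members and 0.0% of the table with edgeR, and DESeq2 and limma voom called 0 members as well. At an unadjusted p under 0.05 it had 3 members, in Fosl1, Fos and Junb, against 4.06% of all regions.

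The 3 genes with the most similar pattern to that of Fosl1, the widest ranging member, were Ptges3l and Rundc1, which share the same regions, and Pgap3. Likeness was the root mean square difference of centred log2 values over the 10 libraries: 0.139 and 0.141 for these, against a median of 0.297 over 13883 genes.

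BATF3 and ATF3 are bZIP proteins that pair with Jun proteins, and BATF3 with Jun binds DNA together with IRF factors. The Batf3 sum was 36.7, 42.0 and 32.0 CPM in WT cTreg and 44.3, 47.4 and 46.7 CPM in WT eTreg, and 31.6 and 34.3 CPM in FntbKO cTreg and 42.7 and 45.4 CPM in FntbKO eTreg. Every eTreg library was above every cTreg library of its genotype, by 0.33 in WT (SE 0.107, adjusted p = 0.0980) and 0.42 without Fntb (SE 0.130, adjusted p = 0.111). Without WT cTreg replicate 2 the WT difference was 0.44 and passed (adjusted p = 0.0237), and with the replicate number as a block both passed (adjusted p = 0.0461 and 0.0439). Neither passed with DESeq2, limma voom or cyclic loess. The WT difference was 0.23 to 0.44 over the 10 left-out libraries. Of its 6 regions, one inside Batf3 (chr1:191102680-191103261) had the largest WT difference, with 4.47, 5.84 and 5.70 CPM in WT cTreg against 10.1, 11.7 and 7.12 CPM in WT eTreg, 0.87 on the log2 scale (SE 0.254, adjusted p = 0.0530). FntbKO cTreg had 4.10 and 5.44 CPM there and FntbKO eTreg 7.61 and 7.08 CPM. The region passed with DESeq2's size factors (adjusted p = 0.0492), but not with the DESeq2 test, limma voom or cyclic loess. Its WT difference was 0.71 to 1.04 over the 10 left-out libraries.

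The Atf3 sum, 160 to 198 CPM over the 10 libraries, overlapped between groups in the 4 comparisons, with edgeR adjusted p of 0.683 or more. ATF3 is a stress-induced bZIP protein. Its most accessible region, 10.3 kb upstream, averaged 79.7 CPM against 20.8 CPM at the start. The start region read 22.9, 25.4 and 26.5 CPM in WT eTreg and 16.6 and 19.9 CPM in FntbKO eTreg, a log2 difference of -0.43 (SE 0.168, adjusted p = 0.284) without overlap.

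At Nfe2l2 the gene sum differed little, and 2 of its 8 regions were called, one between the WT subsets and the other between genotypes. The sum was 154, 150 and 155 CPM in WT cTreg, 162, 171 and 169 in WT eTreg, 135 and 146 in FntbKO cTreg and 154 and 150 in FntbKO eTreg. The FntbKO libraries were below the WT libraries of their subset in every case, by -0.12 in cTreg (adjusted p = 0.399) and -0.14 in eTreg (adjusted p = 0.372).

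The Nfe2l2 region at the start (chr2:75703344-75705145), which holds the promoter window shown above, read 70.6, 66.2 and 67.0 CPM in WT cTreg and 91.7, 80.6 and 96.8 CPM in WT eTreg. It rose in WT eTreg by 0.40 on the log2 scale (SE 0.0997, 1.32-fold, edgeR adjusted p = 0.0260). Without Fntb it read 53.2 and 60.9 CPM in cTreg and 80.5 and 68.0 CPM in eTreg, a difference of 0.37 (SE 0.123, adjusted p = 0.128) without overlap, and the interaction was -0.03 (SE 0.158). FntbKO was below WT in every library, by -0.25 in cTreg (adjusted p = 0.364) and -0.28 in eTreg (adjusted p = 0.303). The WT call was lost without WT cTreg replicate 1 (adjusted p = 0.0534) or 3 (0.124) and without WT eTreg replicate 1 (0.0939) or 3 (0.149), with log2 differences of 0.35 to 0.48 over the 10 left-out libraries.

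The second Nfe2l2 region lay 58.6 kb upstream (chr2:75763248-75763678), outside any protein-coding span, with the long non-coding RNA genes Gm34657 at 5.2 kb and Gm13657 at 13.2 kb nearer than Nfe2l2. It was weak, with 248 counts over all libraries. It read 3.63, 3.44 and 2.96 CPM in WT cTreg and 5.78, 6.17 and 4.75 CPM in WT eTreg, against 0.273 and 1.04 CPM in FntbKO cTreg and 0.801 and 1.38 CPM in FntbKO eTreg. The 4 FntbKO libraries, with 2, 16, 4 and 14 counts, were all below the 6 WT libraries. The region fell in FntbKO cTreg by 2.14 on the log2 scale (SE 0.485, edgeR adjusted p = 0.0341) and fell by 2.27 in FntbKO eTreg (SE 0.473, adjusted p = 0.0274). These comparisons use separate libraries and share the fit's estimate of spread. With limma voom neither passed (adjusted p = 0.129 and 0.0853). In cTreg the edgeR adjusted p was 0.0635, 0.0761 and 0.0616 without WT cTreg replicates 1, 2 and 3. It was 0.0568 and 0.0541 without WT eTreg replicates 1 and 2. Without FntbKO cTreg replicate 1 the log2 difference was -1.67 and the call was lost, and without FntbKO cTreg replicate 2 the difference was -3.53. In eTreg the edgeR adjusted p was 0.0928, 0.0668 and 0.0860 without WT eTreg replicates 1, 2 and 3. Without FntbKO eTreg replicates 1 and 2 the log2 differences were -2.01 and -2.78, and the call was lost in both. Leaving out an FntbKO library leaves 1 in its group, and where the call was then lost few of all regions were called.

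**Figure D4:**
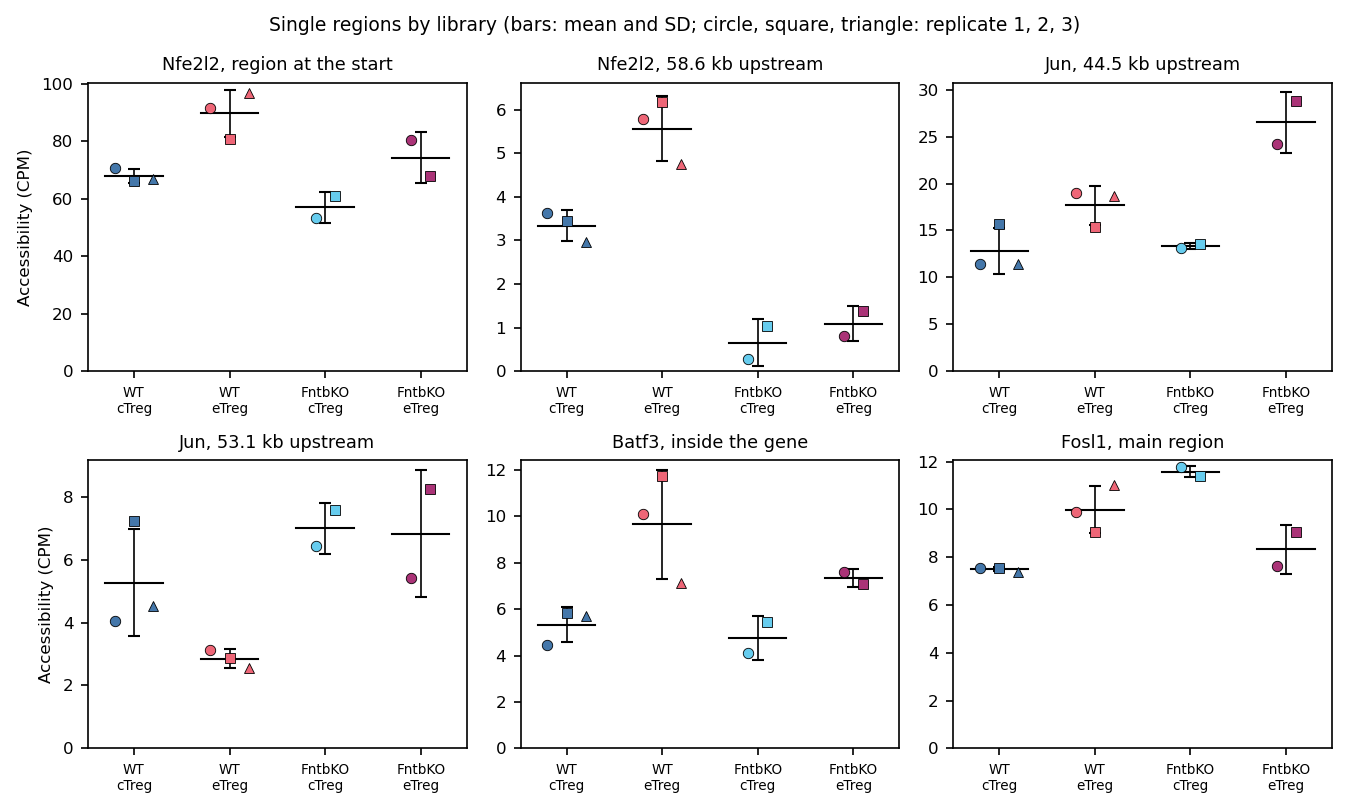
CPM by library at 6 single regions of Nfe2l2, Jun, Batf3 and Fosl1; points are libraries, horizontal bars the mean and vertical bars the SD of each group. The 4 FntbKO libraries of the Nfe2l2 region 58.6 kb upstream read 0.273 to 1.38 CPM, below the 6 WT libraries at 2.96 to 6.17 CPM.

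For context, 32 of 35 other bZIP genes had regions, 296 of which were tested. Between WT eTreg and WT cTreg 10 of these were called higher and 11 lower (7.09%, beside 3.44% of all regions), and 9 of the lower were in Bach2, a repressor of effector differentiation. The lowest adjusted p was at Maf, which encodes c-MAF, 35.7 kb from the span, with 10.0 ± 1.35 (SD, n = 3) CPM in WT cTreg and 26.0 ± 4.95 CPM in WT eTreg (1.37 on the log2 scale, edgeR adjusted p = 0.000762), and 1.45 without Fntb (adjusted p = 0.00731). Without Fntb 8 were higher and 1 lower in eTreg (3.04%, beside 1.35%). Between genotypes 1 was called in cTreg (0.338%, beside 0.568%), a Maf region 64.1 kb away that fell by 1.22 in FntbKO cTreg (adjusted p = 0.00564), and 0 in eTreg. All 13 partners and regulators of these factors had regions. In WT eTreg against WT cTreg 4 of their 121 regions were higher, with Elk3, Irf8 and Map3k1 among them, and 1 in Irf4 was lower (-0.78, adjusted p = 0.00239), together 4.13% beside 3.44% of all regions. Irf4 and Irf8 encode partners of AP-1, and Keap1 and Cul3, which restrain NRF2, had no region called in the genotype comparisons. Between the FntbKO subsets 2 of the 121 were higher and 0 lower (1.65%, beside 1.35%), and 0 were called in either genotype comparison or in the interaction.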

How the data were processed

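The values are counts per accessible region in 10 libraries, which the authors deposited as 1 table of 77076 regions. The submitters' processing notes name Trimmomatic 0.36, Picard 2.9.4, SAMtools, MACS2 2.1.1, bedtools and the builds mm10 and GRCm38. The aligner, peak merging and any transposase shift are not given in the sources used here. Between 66.7% and 79.2% of counts were even, so mates of a pair may have been counted separately, and coordinates are copied unchanged, with no statement of whether starts count from 0 or 1. Exons were not used.

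The members, the gene lists and the rule for named regions (the most accessible of each gene, those called, and the lowest p-values) were chosen with earlier results of these data known. Regions were assigned to RefSeq GRCm38.p6 protein-coding spans. Of 77076 regions, 76216 passed edgeR's filterByExpr. TMM scaling was followed by edgeR 4.0.16 (R 4.3.3, robust quasi-likelihood, 1 mean per group, 10 libraries, 6 residual degrees of freedom), by region and summed per gene. Library depth limits precision at weak regions. Alternatives were DESeq2 1.42.0, limma 3.58.1 (voom and cyclic loess), other scalings, filters and distances, halved counts, the replicate block and leaving out libraries.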

Additional observations from a re-analysis of the deposited data

How the results depend on the processing

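Alternatives were run for 19 log2 differences, those of 15 region and 4 gene sum comparisons, and none of these changed sign: of 378 values, 338 kept their side of the threshold, 14 gained and 26 lost it. Most member counts are 0 or 1, so 1 region moves them. The share called over all regions moved as well. Between the WT subsets it was 3.44% in the main fit and 3.47% with DESeq2 size factors. It was 3.98% with a mean CPM filter of 2, 4.66% with halved counts and 5.45% with the replicate block. Member regions called between WT eTreg and WT cTreg (1) became 2 with DESeq2 size factors, a mean CPM filter of 2, halved counts or the replicate block, each adding the Batf3 region, and 3 without WT cTreg 2 and FntbKO cTreg 1 together. With those left out, the counts were 0 between the FntbKO subsets, 0 in cTreg and 2 in eTreg between genotypes for regions, and 1, 0 and 1 for gene sums between the WT subsets and between genotypes in cTreg and eTreg. Limma voom gave 0 regions in both genotype comparisons, beside 0.461% of all regions in cTreg and 0.194% in eTreg. Restricting to regions that overlap the span, or lie within 10 kb, gave 0 for the FntbKO subsets and both genotype comparisons, since the regions called there lie farther away. Gene sums called were 0 in FntbKO cTreg against WT cTreg with cyclic loess and 1 in FntbKO eTreg against WT eTreg with the DESeq2 test. Leaving out 1 WT library at a time gave 0 to 2 regions between the WT subsets and 1 between the FntbKO subsets. It gave 0 to 1 in each genotype comparison and 0 in the interaction, and gene sums of 0 to 1, 0, 0 to 2 and 0 to 1. Over all regions the shares called in these fits were 0.563% to 4.81% and 0.823% to 2.37% between the WT and FntbKO subsets. Between genotypes they were 0.264% to 0.528% in cTreg and 0.0512% to 0.665% in eTreg. Leaving out an FntbKO library leaves 1 in its group, and some calls were then lost, as given above.

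Whether the replicate numbers pair the samples is not given by the labels, and not every same-numbered pair correlated above 0.1, so the fit without the block was kept. Deviations of same-numbered libraries correlated at -0.083 to 0.20 (median 0.090, over 0.1 in 5 of 13 pairs), against a median of -0.045 and 1 of 24 for other pairs. These pairs include those between genotypes. Between cTreg and eTreg of one genotype, same-numbered pairs correlated at 0.18, 0.091 and 0.036 in WT and 0.20 in FntbKO. Of the 10 libraries, 8 correlated best with their own number. In a group of 2 libraries the 2 deviations from the group mean are equal and opposite. Every pair between the 2 FntbKO groups therefore has the same 0.20, with either sign. The counts of pairs and libraries are thus not independent. They give at most a hint of pairing, from the data and not from the design. The replicate block raised calls over all regions from 2623, 1032, 433 and 269 to 4150, 2476, 990 and 654, and gave 1, 1, 2 and 1 member gene sums. Chi-square per region between replicates was 2.48 to 3.71, above the sampling noise of independent counts. If mates were counted separately that noise is larger, and no level was computed for that case. The share of calls over all regions that were higher in FntbKO cTreg was 33.5%, but 49.0% with voom, 22.5% with loess and 43.8% with halved counts; in FntbKO eTreg it was 51.3%, 64.9% with voom and 41.2% with loess. Depth limits the weak regions: a region with few counts in a library that was not called is not shown to be unchanged.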

Other observations

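Among the tested member regions, several weak ones had large differences that were not called, and 3 of them are given here as examples. The Atf3 region 32.8 kb upstream, with 119 counts in all, read 0.547 and 0.778 CPM in FntbKO cTreg and 4.40 and 1.87 CPM in FntbKO eTreg, a log2 difference of 2.11 (SE 0.707, edgeR adjusted p = 0.127). The Atf3 region 18.9 kb upstream, with 100 counts, had the opposite sign, with 1.78 and 1.30 CPM in FntbKO cTreg and 0.400 and 0.393 CPM in FntbKO eTreg (-1.89, adjusted p = 0.294). The Jun region 13.3 kb downstream read 1.45, 2.29 and 2.03 CPM in WT eTreg and 4.81 and 6.20 CPM in FntbKO eTreg (1.52, SE 0.468, adjusted p = 0.157), and its value passed without WT cTreg 2 and FntbKO cTreg 1 (adjusted p = 0.0449).

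All 6 Batf3 regions had a log2 difference above 0 between FntbKO eTreg and FntbKO cTreg, and 5 of 6 between WT eTreg and WT cTreg, with 0 of them called. Over all regions 49.6% and 48.9% were above 0. The Batf3 region 2.1 kb downstream was at 0.00087 (SE 0.321) between the FntbKO subsets, in effect no difference. At Nfe2l2, 7 of 8 regions were below 0 between FntbKO and WT cTreg and 6 of 8 between FntbKO and WT eTreg, where 49.4% and 49.8% of all regions were above 0. The Nfe2l2 values below 0 in cTreg included -0.011, -0.045 and -0.056, each within its SE of 0.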
